A study of Mus musculus with 14 samples.

Results

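Memory B cells were compared with naive B cells on 7 of the 14 arrays of this study of mouse B cell differentiation, 4 of memory and 3 of naive cells, chosen by their sample labels. All 18193 genes with a usable probe set were tested. The other 7 arrays, 3 of germinal center B cells and 4 of plasma cells, entered the same model and so helped to estimate the spread. All cells were sorted by FACS from spleens of male C57Bl/Ka mice, and their RNA was hybridised to 1-colour oligonucleotide arrays, on which several short probes make a probe set for a transcript.

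Memory B cells came from mice 14 to 18 weeks old that had received 100 µg of NP-CGG/alum by the intraperitoneal route 10 to 12 weeks before harvest. NP-CGG is the hapten NP coupled to a carrier protein, and the response of this strain to NP is dominated by antibodies with a lambda light chain. The memory sort took B220+ IgM- IgD- Ig-lambda+ PNA- cells that bound NP and were CD38-high. Naive B cells came from mice 4 to 8 weeks old whose labels name no immunogen, and were sorted, in 2 rounds, as B220+ CD23+ IgM-low IgD+ Ig-lambda+ cells. Both sorts excluded cells with CD3, CD4, CD5, CD8, Gr-1, CD11b or Ter119. Memory cells that kept IgM lie outside the gate. The naive cells were not selected for binding of NP, and memory status, age and immunization cannot be told apart, since each memory array differs from each naive array in all of them. Germinal center and plasma cells came from mice 6 to 10 and 5 to 9 weeks old, 14 and 7 days after immunization. Their labels give a dose of 100 µg, except that of plasma array 1, which gives no dose. The labels do not say how many mice gave each array or whether arrays of a group are separate animals, so p-values measure the spread between arrays, which may in part be technical.

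A naive follicular B cell recirculates between blood and the follicles of spleen and lymph nodes and carries IgM and IgD. After antigen and T cell help its descendants divide in germinal centers, mutate and switch their antibody genes, and leave as plasma cells, which secrete antibody, or as memory B cells, which rest for long periods and answer the same antigen faster. Mouse memory B cells are commonly told apart by CD80, PD-L2 (encoded by Pdcd1lg2) and CD73 (encoded by Nt5e), and by transcription factors that hold back or permit plasma cell formation.

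The values below are linear intensities as deposited, and group means of them are geometric means over the arrays. Differences are log2 fold changes, memory minus naive, with the standard error of the limma model (4 memory and 3 naive arrays), and a gene was called at a Benjamini-Hochberg adjusted p under 0.05. A probe set counted as above background on an array where it exceeded the brightest of 27 unspiked bacterial control probe sets, which lay between 10.96 and 14.6 on memory arrays and between 11.6 and 14.2 on naive arrays. Intensities of different genes come from different probes and were not compared with each other.

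Replicates resembled each other more than they resembled the other group. Log2 intensities over the 18193 genes, with 1 probe set each, correlated at 0.984 to 0.990 between memory arrays and at 0.984 to 0.988 between naive arrays, against 0.964 to 0.980 between a memory and a naive array. On the third principal component, which carried 7.65% of the variance over all 14 arrays, memory arrays lay between -36.1 and -17.8 and naive arrays between 30.5 and 41.1. The share of genes above background was 54.0% to 66.9% on memory arrays and 52.7% to 64.6% on naive arrays. The median log2 fold change was -0.03 over all genes and -0.20 over the 6116 bright genes (mean log2 intensity of at least 6), so arrays centred on the bright genes move the balance of calls.

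Of 18193 genes, 1014 (5.57%) were called: 421 (2.31%) rose and 593 (3.26%) fell in memory cells. With arrays centred on bright genes the counts were 675 higher and 315 lower, and with arrays centred on the median of all genes 352 higher and 688 lower, so the share of higher against lower calls depends on the scaling. When only genes above background in a subset were tested, 1129 of 10589 (10.66%) were called. Counts for the gene lists below are to be read beside these shares over all genes. The memory and naive arrays did not overlap for 987 (97.3%) of the called genes. Calling favours genes without overlap, so this share, like the lack of overlap of single called genes below, is not separate support. At least 2-fold differences were found for 307 higher and 290 lower genes, and 8-fold ones for 35 higher and 12 lower genes, the log2 fold changes reaching 6.52 upwards and -3.99 downwards. As 44 of the risen genes were not above background on any naive array and 16 of the fallen genes on no memory array, folds of those genes are given as lower bounds. Leaving out 1 array gave 603 calls without naive array 2, 624 without naive array 3, 684 without memory array 2 and 744 without memory array 1, and 886 to 927 without any 1 of the other 3.

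**Figure D1:**
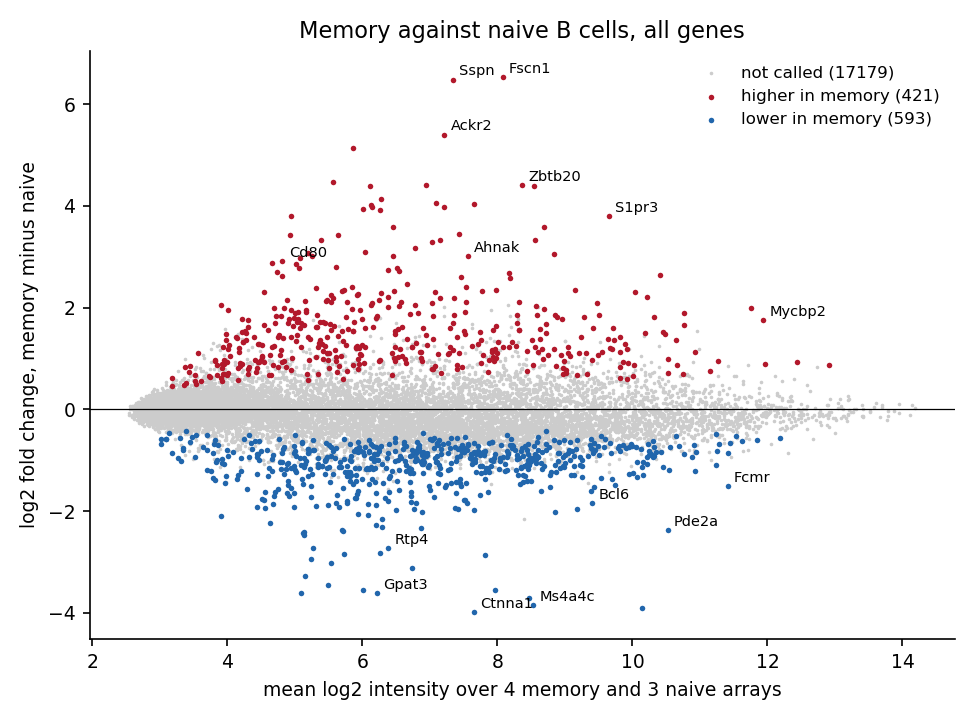
Log2 fold change (memory minus naive, vertical axis) against the mean log2 intensity over the 4 memory and 3 naive arrays (horizontal axis) for all 18193 genes, with the 421 genes higher in memory in red, the 593 lower in blue and uncalled genes in grey. The largest rises belong to Fscn1 and Sspn, both over 6 on the log2 scale, and most fallen genes lie between 0 and -2.

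Memory array 4 stood apart from the other memory arrays for immediate early genes, the transcription factors and phosphatases that a lymphocyte switches on within minutes of stimulation or handling. Of 35 such genes above background on at least 1 of the 7 arrays, 24 were highest on memory array 4 among the memory arrays, 14 of them by at least 2-fold, and no other memory array had such a lead for any of them. Fos had 72.98, 40.4, 139.6 and 4395 on the memory arrays, against 619.8, 87.6 and 38.2 on the naive arrays. Dusp1, a phosphatase of MAP kinases, had 202, 142, 183 and 2897 on the memory arrays, against 292, 200.5 and 120.4 on the naive arrays. Egr1 had 65.2, 97.6, 158 and 1629 on the memory arrays, against 513, 204 and 355 on the naive arrays. Memory array 4 lay above the naive range for each of these 3 genes, and the other 3 memory arrays did not. With the settings used throughout, none of the 39 listed immediate early genes was called over all arrays by limma (3 had an unadjusted p under 0.05), and 5 were called lower in memory cells without memory array 4. Egr3 was the largest of them: it had 56.7, 172, 127 and 799 on the memory arrays, against 589, 806 and 1030.1 on the naive arrays, a log2 fold change of -2.15 ± 0.67 (adjusted p = 0.0844), against -2.88 ± 0.47 (adjusted p = 0.00289) without memory array 4. Over all arrays Egr3 was also called lower with a mean-variance trend in limma (adjusted p = 0.034) and when only genes above background were tested (adjusted p = 0.0359). So it was in limma with the replicate number as a block over 14 arrays, at -2.51 (adjusted p = 0.0286). These genes were singled out after their values were seen.

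The sorted cells carried B cell transcripts and few of other lineages. Ptprc, which encodes the B220 antigen, had 10373, 13209, 11041 and 12249 on the memory arrays, against 11630.0, 10802 and 13568 on the naive arrays. Ms4a1, encoding CD20, had 7857, 10260.4, 9020.3 and 9689 on the memory arrays, against 8206, 7699 and 7992 on the naive arrays. Both sorts required a lambda light chain, and Iglv1, a lambda variable gene, had 4732, 4580.2, 4316 and 4417 on the memory arrays, against 5256, 5935 and 4689 on the naive arrays. Memory and naive arrays overlapped for all 3 genes, and none was called (adjusted p = 0.96, adjusted p = 0.723 and adjusted p = 0.514). The naive gate used CD23, the low-affinity IgE receptor encoded by Fcer2a, and Fcer2a had 1242, 433, 543 and 869 on the memory arrays, against 1808, 1559.8 and 1686 on the naive arrays. It fell by 1.24 ± 0.31 (adjusted p = 0.0305), a call that did not hold without memory array 2 or 3, without naive array 1, 2 or 3, with arrays centred on bright genes, with a floor of 16, with only the 7 arrays fitted and with the replicate number as a block over 14 or 6 arrays (highest adjusted p = 0.0945). The symbols Cd38 and Ighd have no probe set with a single gene name in the table.

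Markers of other lineages were low in both groups. None of the 15 T cell, 11 NK cell, 12 neutrophil, 10 megakaryocyte and 15 stromal markers measured was called, and the summed intensity of the T cell markers was 228 to 280 on memory arrays and 240 to 253 on naive arrays. NK markers summed to 152 to 337 on memory and 204 to 341 on naive arrays, and neutrophil markers to 124 to 135 on memory and 116 to 138 on naive arrays. Megakaryocyte markers summed to 146 to 176 on memory and 132 to 187 on naive arrays, and stromal markers to 157 to 174 on memory and 165 to 189 on naive arrays. The macrophage list did differ in its sum, 652 to 923 on memory arrays against 347 to 395 on naive arrays, through Mpeg1, which encodes a pore-forming protein best known from macrophages. Mpeg1 had 379, 662, 651 and 409.6 on the memory arrays, against 90.8, 89.3 and 122 on the naive arrays and rose by 2.35 ± 0.33 (adjusted p = 0.000724). Adgre1, encoding the macrophage antigen F4/80, fell by 0.95 ± 0.23 (adjusted p = 0.0263), a call that did not hold without memory array 1 or 2, without naive array 2 or 3, with arrays centred on bright genes, with a floor of 16 and after quantile normalization (highest adjusted p = 0.127). Without Mpeg1 and Adgre1, the 2 called members, the other 19 macrophage markers summed to 226 to 250 on memory arrays and 211 to 243 on naive arrays, and Itgam (CD11b) and Cd14 were not above background on any of the 7 arrays. Fscn1 and Car2, described below, were the only called members of the dendritic cell and erythroid lists. The other 12 dendritic cell markers summed to 271 to 360 on memory arrays and 309 to 518 on naive arrays, and Xcr1 was not above background on any. The other 11 erythroid markers summed to 225 to 405 on memory arrays and 460 to 516 on naive arrays, the brightest of them being the transferrin receptor gene Tfrc, and Hba-a1, Alas2 and Gata1 were not above background on any. The part of other cell types in the results was not tested further.

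The largest rises were those of Fscn1 and Sspn. Fscn1, encoding fascin, which bundles actin filaments, had 2539, 1635, 1648 and 1817 on the memory arrays, against 8.80, 57.3 and 16.8 on the naive arrays. It rose by 6.52 ± 0.53 (adjusted p = 5.72e-06, with 2 of 3 naive arrays above background). Sspn, encoding sarcospan of the dystrophin-associated complex in muscle, had 1118, 780.3, 1917 and 898 on the memory arrays, against 24.99, 9.51 and 8.00 on the naive arrays. It rose by 6.48 ± 0.39 (adjusted p = 3.62e-07, with 1 of 3 naive arrays above background). Every memory array lay above every naive array for both genes. In a sample of mixed cells, such a difference cannot tell more expressing cells from more RNA per cell.

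Lmo7, whose LIM-domain protein sits at junctions and binds afadin, had 232, 117, 167 and 220.1 on the memory arrays, against 14.8, 6.35 and 5.57 on the naive arrays. It rose by 4.46 ± 0.38 (adjusted p = 9.27e-06, with 1 of 3 naive arrays above background). Afdn, which encodes afadin itself, had 53.4, 76.1, 83.9 and 37.1 on the memory arrays, against 8.17, 8.20 and 7.95 on the naive arrays, and was at least 4.59-fold higher in memory cells (adjusted p = 1.27e-05). Cdh17, a cadherin of intestine and liver that is also found on B cell subsets in mice, had 234, 229, 263 and 141 on the memory arrays, against 43.5, 35.5 and 36.1 on the naive arrays and rose by 2.47 ± 0.22 (adjusted p = 1.31e-05). In the opposite direction, Ctnna1, encoding alpha-catenin, which links cadherins to actin, had 18.3, 47.7, 127 and 129 on the memory arrays, against 864, 1019.5 and 1051 on the naive arrays and fell by 3.99 ± 0.51 (adjusted p = 0.000349), the largest fall of the comparison. In all, 3 of 29 junction genes rose and 1 fell. Of 48 actin bundling and contractile genes, 4 rose and 1 fell (median 0.00), the count of 5 being 3 without naive array 3. Those 5 were 10.4% of the list, against 5.57% called over all genes and 10.66% over genes above background. Myo1f and the other members are thus given as single genes. Myo1f, a myosin of leukocyte migration, rose by 1.62 ± 0.19 (adjusted p = 0.000216).

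A few annexin and S100 genes changed. Anxa2, encoding annexin A2, which binds acidic phospholipids in the presence of calcium, had 256, 859, 549.6 and 355 on the memory arrays, against 17.2, 27.7 and 20.7 on the naive arrays and rose by 4.41 ± 0.39 (adjusted p = 1.27e-05). Ahnak, a giant scaffold protein that binds the complex of annexin A2 with S100A10, had 502, 339, 542 and 496 on the memory arrays, against 65.1, 61.4 and 46.2 on the naive arrays and rose by 3.02 ± 0.23 (adjusted p = 3.02e-06). S100a6, a small calcium-binding protein, had 37.5, 32.99, 52.03 and 15.02 on the memory arrays, against 7.92, 11.4 and 8.62 on the naive arrays, and was at least 2.42-fold higher in memory cells (adjusted p = 0.00324), though the call was lost with a floor of 16 (highest adjusted p = 0.117). Anxa1, encoding annexin A1, went the other way with 42.7, 46.7, 116 and 75.1 on the memory arrays, against 195, 268 and 233 on the naive arrays. It fell by 1.83 ± 0.33 (adjusted p = 0.00417). Of 26 members measured 4 rose and 1 fell, and 11 were above background on all arrays of either group.

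**Figure D2:**
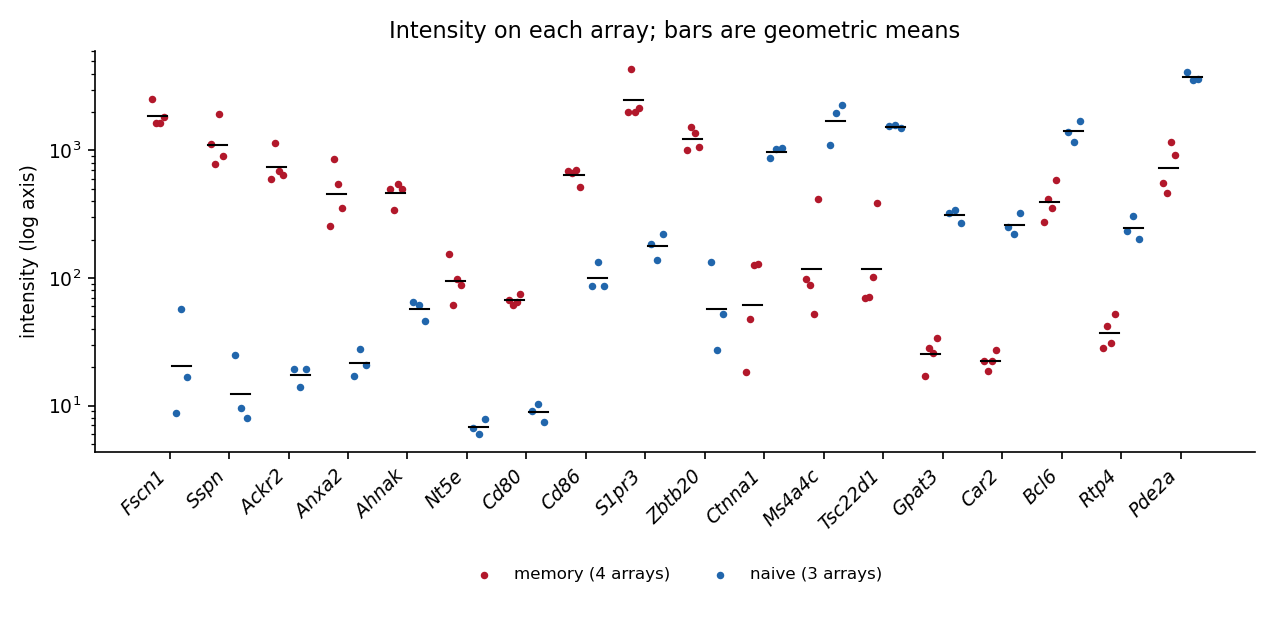
Linear intensity on a log axis for 18 genes on each of the 4 memory arrays (red, left in each pair) and 3 naive arrays (blue, right), with bars at the geometric mean. The memory and naive points do not overlap for any of the genes, and memory array 4 is the highest red point for Ms4a4c (417) and Tsc22d1 (385).

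Surface proteins by which memory B cells are recognised were the list with most rises. Of 16 measured members 9 rose and 0 fell, with a median log2 fold change of 1.14. That list was assembled from genes known to mark memory cells, so its direction is not an independent result. Cd80, a costimulator that engages CD28 on T cells, had 67.6, 61.5, 64.5 and 75.1 on the memory arrays, against 9.09, 10.2 and 7.48 on the naive arrays, and was at least 5.16-fold higher in memory cells (adjusted p = 3.8e-08). Cd86, the other ligand of CD28, had 691, 664, 701 and 516 on the memory arrays, against 85.9, 133 and 86.8 on the naive arrays and rose by 2.68 ± 0.19 (adjusted p = 1.51e-06). Pdcd1lg2, encoding PD-L2, a ligand of the inhibitory receptor PD-1, had 133, 97.3, 143 and 61.6 on the memory arrays, against 23.9, 27.7 and 28.1 on the naive arrays and rose by 1.96 ± 0.24 (adjusted p = 0.000242). The 4 memory arrays of Cd80 spanned 61.5 to 75.1 and were the most even of the 3. Cd274, encoding PD-L1, rose by 0.81 ± 0.21 (adjusted p = 0.0388), a call that did not hold without memory array 1, 2 or 3, without naive array 2 or 3, with arrays centred on the median, with a trend, with a robust trend, with a floor of 16 and after quantile normalization (highest adjusted p = 0.152).

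Nt5e encodes CD73, the ectoenzyme that turns AMP into adenosine, and had 156, 61.8, 98.6 and 88.02 on the memory arrays, against 6.71, 6.04 and 7.80 on the naive arrays. It was at least 7.36-fold higher in memory cells (adjusted p = 1.23e-05). Fas, a death receptor, had 121, 69.7, 70.4 and 124 on the memory arrays, against 28.5, 23.1 and 27.7 on the naive arrays and rose by 1.81 ± 0.30 (adjusted p = 0.00215), and Cd44, a receptor for hyaluronan that marks antigen-experienced lymphocytes, rose by 1.36 ± 0.25 (adjusted p = 0.00442), a call that did not hold with the most variable probe set (highest adjusted p = 0.0647). Over the wider B7 and CD28 family of 22 genes, 4 rose and 1 fell, Slamf1, a homophilic receptor of lymphocytes, being the one that fell, at -0.68 ± 0.15 (adjusted p = 0.0158). The Slamf1 call did not hold without naive array 3, with arrays centred on bright genes, with a trend, with a robust trend and with the replicate number as a block over 6 arrays (highest adjusted p = 0.157). Without naive array 3 the count of 5 was 3. Among 21 TNF receptor family genes Fas was the only one called (4.76%, against 5.57% over all genes).

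Some receptors that place cells in tissue were higher. Ackr2, a scavenger that takes up inflammatory CC chemokines without signalling migration, had 594, 1135, 691 and 639 on the memory arrays, against 19.4, 14.1 and 19.5 on the naive arrays and rose by 5.40 ± 0.25 (adjusted p = 3.8e-08). Ackr3, a scavenger of CXCL12, had 36.7, 174, 89.3 and 86.9 on the memory arrays, against 8.32, 7.36 and 7.87 on the naive arrays, and was at least 6.46-fold higher in memory cells (adjusted p = 6.18e-05). Cxcr3, which guides cells to sites of interferon-gamma responses, had 176, 673, 185 and 188 on the memory arrays, against 25.4, 25.4 and 14.8 on the naive arrays and rose by 3.58 ± 0.38 (adjusted p = 7.39e-05). Memory array 2 held the highest value for all 3 receptors. Of 20 chemokine receptor and scavenger genes 4 rose and 0 fell. The fourth riser was Ccr6, whose call was lost in most alternatives, namely without memory array 2, 3 or 4, without naive array 1, 2 or 3, with arrays centred on the median, with a trend, with a robust trend, with a floor of 16, with the most variable probe set, with only the 7 arrays fitted, with every probe set tested and with the replicate number as a block over 6 arrays (highest adjusted p = 0.139).

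S1pr3 encodes a receptor for sphingosine 1-phosphate that is known from marginal zone B cells, and had 2017, 4347, 2006 and 2162 on the memory arrays, against 185, 139 and 221 on the naive arrays. It rose by 3.80 ± 0.26 (adjusted p = 9.55e-07). S1pr4, another receptor of the same lipid, fell by 0.91 ± 0.19 (adjusted p = 0.0116). That call did not hold with arrays centred on bright genes or with the replicate number as a block over 6 arrays (highest adjusted p = 0.0913). Gpr34, a lysophosphatidylserine receptor, had 34.6, 37.8, 20.7 and 25.1 on the memory arrays, against 7.17, 8.54 and 6.68 on the naive arrays, and was at least 2.21-fold higher in memory cells (adjusted p = 2.66e-05). Lpar6, a lysophosphatidic acid receptor, had 94.4, 107, 102 and 81.7 on the memory arrays, against 355, 331 and 434 on the naive arrays and fell by 1.95 ± 0.16 (adjusted p = 5.89e-06). Of 23 lipid and purine receptor genes 4 rose and 2 fell. A pair of regulators of these G protein-coupled receptors also differed, as Grk5, a receptor kinase, rose by 1.89 ± 0.25 (adjusted p = 0.000462, with 2 of 3 naive arrays above background), and Rgs18, a GTPase activator, fell by 2.23 ± 0.26 (adjusted p = 0.000142, with 2 of 4 memory arrays above background).

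Ffar2, a receptor for short-chain fatty acids made by gut bacteria, had 798, 2906, 1637 and 939.6 on the memory arrays, against 65.5, 41.9 and 101 on the naive arrays and rose by 4.40 ± 0.41 (adjusted p = 2.07e-05). Cd300lf, an inhibitory receptor for phospholipids, had 415, 707, 448 and 409 on the memory arrays, against 30.9, 31.8 and 29.3 on the naive arrays and rose by 3.97 ± 0.26 (adjusted p = 7.96e-07). Both groups were above background throughout for these 2 genes and did not overlap. Kcnk6, a background potassium channel, rose by 4.06 ± 0.33 (adjusted p = 5.89e-06).

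Semaphorins and their receptors, known from axon guidance and from contacts between lymphocytes, rose in 7 of 33 cases and fell in 1 (median 0.09). Sema4f had 447, 273, 258 and 161 on the memory arrays, against 7.69, 7.81 and 7.32 on the naive arrays, and was at least 20.6-fold higher in memory cells (adjusted p = 7.5e-08). Sema7a, a lipid-anchored semaphorin that binds integrins, had 1059, 1674, 704 and 832 on the memory arrays, against 135, 106 and 69.5 on the naive arrays and rose by 3.34 ± 0.35 (adjusted p = 7.31e-05). The receptor Plxnb2 had 146, 149.5, 213 and 141 on the memory arrays, against 40.3, 33.7 and 30.6 on the naive arrays and rose by 2.21 ± 0.40 (adjusted p = 0.00448). The member that fell was Cd72, a lectin-like inhibitory receptor of B cells and a binding partner of CD100, with 644, 728, 616 and 919 on the memory arrays, against 2012, 1565 and 1890.0 on the naive arrays. It fell by 1.34 ± 0.17 (adjusted p = 0.000342).

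Adhesion genes moved in both directions. Of 41 measured, 6 rose and 3 fell. Itga4, the alpha-4 integrin that binds VCAM-1, had 2389.6, 2073, 2540.1 and 1839 on the memory arrays, against 1021, 401 and 603 on the naive arrays and rose by 1.81 ± 0.26 (adjusted p = 0.0008). Itgae, encoding CD103, the receptor for E-cadherin, had 77.4, 39.6, 48.5 and 45.1 on the memory arrays, against 17.4, 10.9 and 17.5 on the naive arrays and rose by 1.77 ± 0.23 (adjusted p = 0.000419, with 2 of 3 naive arrays above background). Nid1, a basement membrane protein, had 523, 339.6, 377 and 323 on the memory arrays, against 58.8, 50.6 and 83.5 on the naive arrays and rose by 2.61 ± 0.30 (adjusted p = 0.000133). Among the fallen, Itgb3, the beta-3 integrin, fell by 1.81 ± 0.36 (adjusted p = 0.00854), a call that did not hold with the replicate number as a block over 6 arrays. Alcam fell by 1.20 ± 0.23 (adjusted p = 0.00581), a call that did not hold with the most variable probe set (highest adjusted p = 0.599).

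Signalling receptors and their pathways differed for single members. Bmpr1a, a type I receptor for bone morphogenetic proteins, had 214, 302, 272 and 164 on the memory arrays, against 18.3, 13.4 and 11.9 on the naive arrays and rose by 4.02 ± 0.26 (adjusted p = 5.73e-07, with 2 of 3 naive arrays above background). Id2, an inhibitor of E proteins and a common target of BMP signals, had 51.98, 110.2, 101 and 122 on the memory arrays, against 14.02, 8.75 and 10.4 on the naive arrays, and was at least 7.06-fold higher in memory cells (adjusted p = 3.91e-05). Smad1, which carries BMP signals to the nucleus, had 127, 65.8, 123 and 134 on the memory arrays, against 338, 292 and 514 on the naive arrays and fell by 1.77 ± 0.30 (adjusted p = 0.00287). Thus a receptor and a transducer of one pathway changed in opposite directions, and over 34 TGF-beta and BMP genes 4 rose and 3 fell.

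Among 34 cytokine receptor genes 2 rose and 4 fell, 3 being called without memory array 2 and 3 without naive array 3. Il6ra, the alpha chain of the IL-6 receptor, had 108, 87.1, 97.4 and 76.5 on the memory arrays, against 30.97, 37.1 and 27.1 on the naive arrays and rose by 1.54 ± 0.18 (adjusted p = 0.0002). Csf2rb, the beta chain shared by the IL-3, IL-5 and GM-CSF receptors, had 278, 365, 1191 and 293 on the memory arrays, against 110.5, 65.9 and 89.3 on the naive arrays and rose by 2.32 ± 0.42 (adjusted p = 0.00464). Il10ra, the ligand-binding chain of the IL-10 receptor, had 37.4, 44.6, 56.1 and 44.4 on the memory arrays, against 133, 126 and 166 on the naive arrays and fell by 1.64 ± 0.16 (adjusted p = 4.21e-05).

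Of 26 antigen receptor signalling genes 3 rose and 0 fell. Those 3 were 11.5% of the list, against 5.57% called over all genes and 10.66% over genes above background. Malt1, a protease that acts in NF-kappa B activation, had 1620.0, 3297, 2293 and 1985 on the memory arrays, against 1205, 549 and 763 on the naive arrays and rose by 1.48 ± 0.27 (adjusted p = 0.00453). The Malt1 call did not hold with the replicate number as a block over 6 arrays. Nfatc2, a calcium-dependent transcription factor, rose by 1.13 ± 0.20 (adjusted p = 0.00333). Traf1, an adaptor of TNF receptors and an NF-kappa B target, had 404, 1007, 463 and 825 on the memory arrays, against 124, 121 and 76.8 on the naive arrays and rose by 2.58 ± 0.42 (adjusted p = 0.00206). Of 22 NF-kappa B genes it was the only one called with these settings (4.55%, against 5.57% over all genes). Without memory array 3 or naive array 1, 2 of them were called. Of 31 inhibitory coreceptors and phosphatases, 3 rose and 4 fell, the count of 7 being 4 without memory array 1, memory array 2 or naive array 2. Ptpn22, a tyrosine phosphatase that restrains lymphocyte receptors, rose by 1.48 ± 0.26 (adjusted p = 0.00323), and Dusp4, a MAP kinase phosphatase, fell by 1.92 ± 0.21 (adjusted p = 0.000116, with 1 of 4 memory arrays above background).

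Transcription factors of memory fate showed 3 rises and 2 falls among 25 genes. Zbtb20, a BTB zinc finger factor of memory and plasma cells, had 999.9, 1514, 1365 and 1066 on the memory arrays, against 133, 27.1 and 52.6 on the naive arrays and rose by 4.41 ± 0.37 (adjusted p = 7.35e-06). Runx3, a Runt-domain factor, had 134, 175, 173 and 172 on the memory arrays, against 114, 65.2 and 56.4 on the naive arrays and rose by 1.12 ± 0.22 (adjusted p = 0.00809). The Runx3 call did not hold with the replicate number as a block over 6 arrays. Zbtb32, which limits recall responses of mouse memory B cells, rose by 0.67 ± 0.14 (adjusted p = 0.0135), a call that did not hold without naive array 3 (adjusted p = 0.0557). Nor did the Zbtb32 call hold with the replicate number as a block over 6 arrays. Foxo1, the forkhead factor that keeps resting B cells in recirculation, had 886, 958, 906 and 1303 on the memory arrays, against 2657, 1772 and 2217 on the naive arrays and fell by 1.13 ± 0.16 (adjusted p = 0.000724).

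Bcl6, the repressor that germinal center cells depend on, had 274, 413, 356 and 583 on the memory arrays, against 1398, 1174 and 1709 on the naive arrays and fell by 1.85 ± 0.24 (adjusted p = 0.00035). It averaged 2534 in germinal center cells. Satb1, a chromatin organiser of lymphocytes, had 364, 324, 423 and 607 on the memory arrays, against 1287, 1176 and 1329.7 on the naive arrays and fell by 1.60 ± 0.31 (adjusted p = 0.00652). Both belong to the follicular naive list, of which 0 of 17 rose and 4 fell. That count was 2 without any 1 of memory array 2 or 3 or of the 3 naive arrays. The list was assembled from genes known to mark naive follicular cells, so its direction is not an independent result. Its fallen members include Fcer2a, which encodes the CD23 of the naive gate. Bach2, which restrains plasma cell formation, had 398, 357, 839 and 932 on the memory arrays, against 1388, 649 and 1054 on the naive arrays, and Bcl2, the survival factor, had 594, 2410.3, 1418 and 1921 on the memory arrays, against 819, 400.1 and 727 on the naive arrays. Neither was called, at -0.77 ± 0.35 (adjusted p = 0.261) for Bach2 and 1.18 ± 0.43 (adjusted p = 0.146) for Bcl2, and within each gene the memory arrays differed among themselves by more than 2-fold. Bcl2 was called higher without memory array 1, at 1.59 (adjusted p = 0.0189), and through another probe set when every probe set was tested, at 1.60 (adjusted p = 0.00159). Klf2, a factor of quiescence and trafficking, had 588, 762, 861 and 692 on the memory arrays, against 929, 714 and 768 on the naive arrays, a log2 fold change of -0.15 ± 0.30 (adjusted p = 0.882).

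Transcripts of switched antibody were present in memory cells. Only 4 of 14 listed antibody constant region and J chain genes were measured. Ighg1, Ighg2b, Ighg2c and Ighe were not among them, so those classes could not be compared. Ighg3, the IgG3 constant region, had 221, 305, 351 and 206 on the memory arrays, against 12.2, 15.997 and 17.05 on the naive arrays and rose by 4.14 ± 0.25 (adjusted p = 4.1e-07, with 2 of 3 naive arrays above background). Igha, the IgA constant region, had 301, 126, 386 and 249 on the memory arrays, against 14.4, 14.7 and 20.2 on the naive arrays and rose by 3.92 ± 0.29 (adjusted p = 2.47e-06). Plasma cells averaged 10981 for Ighg3 and 18483 for Igha. Jchain, which joins antibody monomers, had 37.6, 28.5, 86.3 and 489 on the memory arrays, against 8.69, 14.9 and 8.67 on the naive arrays and rose by 2.98 ± 0.68 (adjusted p = 0.0203, with 1 of 3 naive arrays above background), a call that did not hold without naive array 1 or 3, with a floor of 16 and with only the 7 arrays fitted (highest adjusted p = 0.16 among these). Nor did the Jchain call hold with the replicate number as a block over 6 arrays. For Ighm, the IgM constant region, the probe sets disagreed. The brightest had 3388, 4417, 5088 and 11706 on the memory arrays, against 9437, 6644 and 5741 on the naive arrays, a log2 fold change of -0.38 ± 0.33 (adjusted p = 0.655), while of its 10 other probe sets 6 were called in the opposite direction, that is higher in memory cells, and 1 lower.

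The largest fall of an antibody gene was that of Ighv14-2, a heavy chain variable gene, with 292, 194, 173 and 1619.6 on the memory arrays, against 6066, 4935 and 4958 on the naive arrays. It fell by 3.90 ± 0.59 (adjusted p = 0.00124), and fell by 4.63 ± 0.31 (adjusted p = 1.94e-06) without memory array 4. Antibody genes lay outside the rule for naming genes, and this gene was chosen after its values were seen. Of the plasma cell list of 20 genes 5 rose and 1 fell. Tent5c, a poly(A) polymerase that stabilises antibody transcripts in plasma cells, had 42.7, 64.3, 78.5 and 157 on the memory arrays, against 8.92, 15.8 and 9.87 on the naive arrays and rose by 2.77 ± 0.37 (adjusted p = 0.000417, with 1 of 3 naive arrays above background). Sdc1, encoding the plasma cell marker CD138, had 6.37, 7.91, 7.39 and 49.9 on the memory arrays, against 103, 190.0 and 147 on the naive arrays and fell by 3.61 ± 0.55 (adjusted p = 0.00127, with 1 of 4 memory arrays above background). Memory array 4 had the highest memory value for Jchain, Tent5c and Sdc1. Plasma cells averaged 12928 for Jchain, 5264 for Tent5c and 2657 for Sdc1.

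Some genes of germinal center cells were higher in memory than in naive cells. Of 23 measured, 5 rose and 3 fell, 5 being called without naive array 2. Basp1, a membrane-attached protein that binds calmodulin, had 830.0, 615, 539 and 731 on the memory arrays, against 34.8, 39.1 and 49.7 on the naive arrays and rose by 4.04 ± 0.23 (adjusted p = 3.3e-07). Neil1, a DNA glycosylase of base excision repair, had 268, 127, 194 and 114 on the memory arrays, against 27.2, 14.4 and 18.6 on the naive arrays and rose by 3.09 ± 0.35 (adjusted p = 0.000116). Germinal center cells averaged 4577 for Basp1 and 374 for Neil1.

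Genes of division did not move together. Mki67, a marker of cycling cells, had 214, 282, 197 and 230.2 on the memory arrays, against 9.21, 32.9 and 10.2 on the naive arrays and rose by 3.97 ± 0.34 (adjusted p = 9.1e-06, with 1 of 3 naive arrays above background). Its mean in memory cells was 229, against 6850.3 in germinal center and 5813 in plasma cells. Of 44 mitosis genes 4 rose and 2 fell, and Ndc80, a kinetochore protein, had 19.8, 30.3, 34.3 and 32.4 on the memory arrays, against 112, 107 and 103 on the naive arrays and fell by 1.91 ± 0.26 (adjusted p = 0.000567). Of 21 genes of D and E cyclins and their kinases none was called by limma, and 4 had an unadjusted p under 0.05; with arrays centred on bright genes 2 were called higher.

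Most called S phase genes were lower in memory cells. Of 37, 9 fell and 1 rose, with a median of -0.43, and with arrays centred on bright genes 5 fell. Without naive array 2 or naive array 3 the count of 10 was 6. Mcm5, a subunit of the replicative helicase, had 212, 264, 223 and 310.2 on the memory arrays, against 651, 909 and 730.3 on the naive arrays and fell by 1.60 ± 0.20 (adjusted p = 0.000248), a call that did not hold with the most variable probe set (highest adjusted p = 0.175). Rrm1, the large subunit of ribonucleotide reductase, had 245, 303, 306 and 319.7 on the memory arrays, against 509.6, 663 and 498 on the naive arrays and fell by 0.92 ± 0.18 (adjusted p = 0.00673). The riser was Tk1, the thymidine kinase of S phase, with 59.9, 56.1, 57.8 and 44.03 on the memory arrays, against 23.8, 14.9 and 10.7 on the naive arrays. It rose by 1.79 ± 0.31 (adjusted p = 0.00374, with 2 of 3 naive arrays above background). Timeless, a protein of replication forks, had 38.8, 46.3, 51.5 and 61.2 on the memory arrays, against 187, 156 and 172 on the naive arrays and fell by 1.81 ± 0.21 (adjusted p = 0.000156); it averaged 381 in germinal center and 412 in plasma cells.

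**Figure D3:**
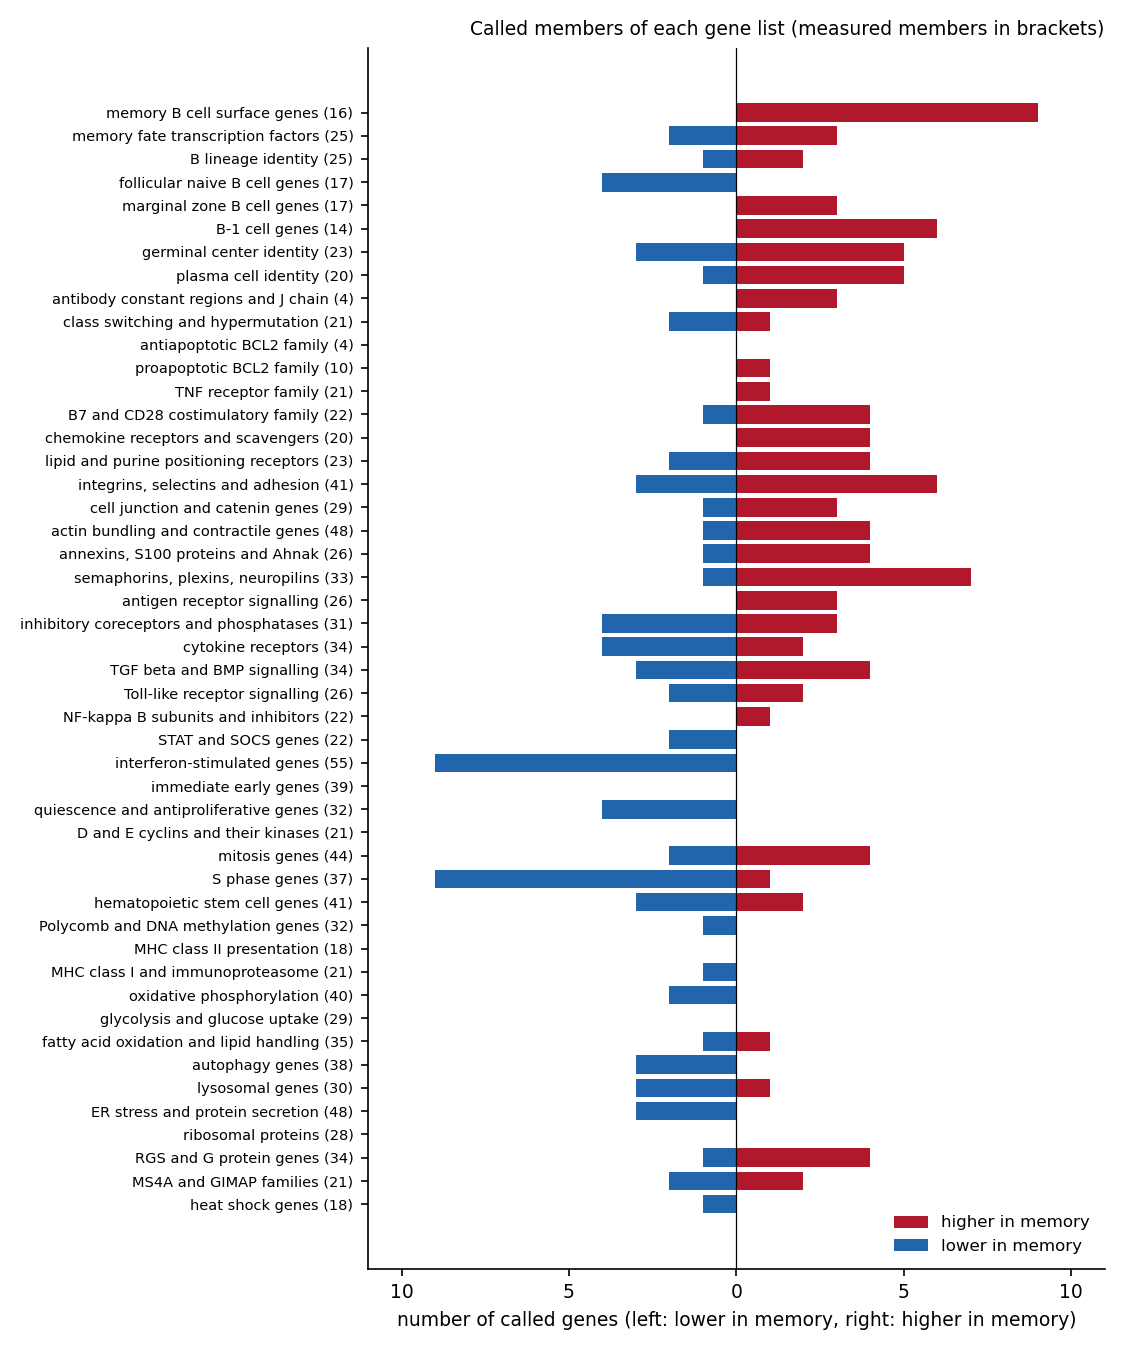
Number of called genes in each of the gene lists, with genes higher in memory to the right in red and genes lower in memory to the left in blue, and the number of measured members in brackets. Memory surface genes have 9 rises and no fall, while interferon-stimulated genes have 9 falls and no rise.

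Interferon-stimulated genes, which type I interferons switch on against viruses and which resting cells express at a basal level, were lower in memory cells where they changed. Of 55 measured, 9 fell and 0 rose, the other 46 were not called, and the median was -0.28. Relative to arrays centred on bright genes 7 fell, and without naive array 2 the count was 5. Rtp4, an interferon-induced chaperone of receptors, had 28.4, 41.8, 30.9 and 51.8 on the memory arrays, against 235, 309 and 203 on the naive arrays and fell by 2.72 ± 0.22 (adjusted p = 6.16e-06). Slfn2, a Schlafen protein of immune cell quiescence, had 90.03, 91.8, 123 and 153 on the memory arrays, against 509, 563 and 295 on the naive arrays and fell by 1.97 ± 0.27 (adjusted p = 0.000512). Usp18, which removes ISG15 from proteins and dampens interferon receptor signalling, had 9.77, 10.6, 11.2 and 19.4 on the memory arrays, against 44.6, 28.3 and 37.9 on the naive arrays and fell by 1.57 ± 0.24 (adjusted p = 0.00124, with 1 of 4 memory arrays above background). Oasl1, a translational inhibitor of Irf7, had 54.8, 52.5, 41.1 and 51.5 on the memory arrays, against 117, 87.004 and 129 on the naive arrays and fell by 1.14 ± 0.19 (adjusted p = 0.00206). In each of these 4 genes all memory arrays lay under all naive arrays.

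Ifit2, an antiviral RNA-binding protein, had 28.8, 72.8, 60.2 and 107 on the memory arrays, against 258, 132 and 376 on the naive arrays and fell by 1.95 ± 0.39 (adjusted p = 0.00824), a call that did not hold without naive array 3 (highest adjusted p = 0.0503). Oas1a, which makes the activator of RNase L and was named after its values were seen, had 156, 164, 116 and 166 on the memory arrays, against 454, 351 and 177 on the naive arrays and fell by 1.03 ± 0.26 (adjusted p = 0.0307), a call that did not hold without memory array 1, 2 or 3, without naive array 1 or 2, with arrays centred on bright genes, with a floor of 16, with only the 7 arrays fitted and after quantile normalization (highest adjusted p = 0.131). Slfn8, a Schlafen gene outside the list that was named after its values were seen, had 316, 309, 296 and 371 on the memory arrays, against 1419, 1029 and 1369 on the naive arrays and fell by 1.97 ± 0.14 (adjusted p = 1.51e-06). Its memory arrays spanned 296 to 371 and the naive arrays 1029 to 1419. Irf7, the transcription factor that amplifies interferon responses, fell by 0.57 ± 0.15 (adjusted p = 0.0395), a call that did not hold without memory array 1, 2, 3 or 4, without naive array 1, 2 or 3, with arrays centred on bright genes, with a trend, with a robust trend, with a floor of 16, with only genes above background and after quantile normalization (highest adjusted p = 0.321).

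Factors activated by type I interferon bind an element whose core was searched for, on both strands, as GAAA and GAAA with any 2 bases between them, in RefSeq promoter windows of GRCm38.p6 that run from 250 bases before to 50 bases after each transcription start. The core was present for 1079 of 27025 genes with a window (3.99%) and for 21 of the 41 interferon list members with one (51.2%). It was present for 1 of the 7 fallen members with a window, Oas1a, and for 20 of the 34 that were not called. Of the fallen members, Rtp4 and Usp18 had no window and were not searched. The windows of Oas1a and Slfn8 are shown because these 2 fallen genes hold the core, which is in capitals; Oas1a has 2 overlapping matches on the strand shown, and Slfn8 has 1 on the other strand, so that it is printed as TTTC and TTTC with 2 bases between them. A match describes the letters and does not show binding.
Oas1a, chr5:120907476-120907775, minus strand: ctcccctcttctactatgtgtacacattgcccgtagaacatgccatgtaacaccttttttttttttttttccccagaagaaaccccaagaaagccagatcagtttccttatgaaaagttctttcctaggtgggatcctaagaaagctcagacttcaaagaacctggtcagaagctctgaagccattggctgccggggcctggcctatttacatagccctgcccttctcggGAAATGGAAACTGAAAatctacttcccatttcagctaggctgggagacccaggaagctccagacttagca
Slfn8, chr11:83020761-83021060, minus strand: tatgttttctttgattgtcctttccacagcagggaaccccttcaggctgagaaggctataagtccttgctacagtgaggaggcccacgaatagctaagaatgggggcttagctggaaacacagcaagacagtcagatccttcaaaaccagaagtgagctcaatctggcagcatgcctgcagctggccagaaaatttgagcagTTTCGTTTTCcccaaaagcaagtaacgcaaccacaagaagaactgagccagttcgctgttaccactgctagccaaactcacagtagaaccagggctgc

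**Figure D4:**
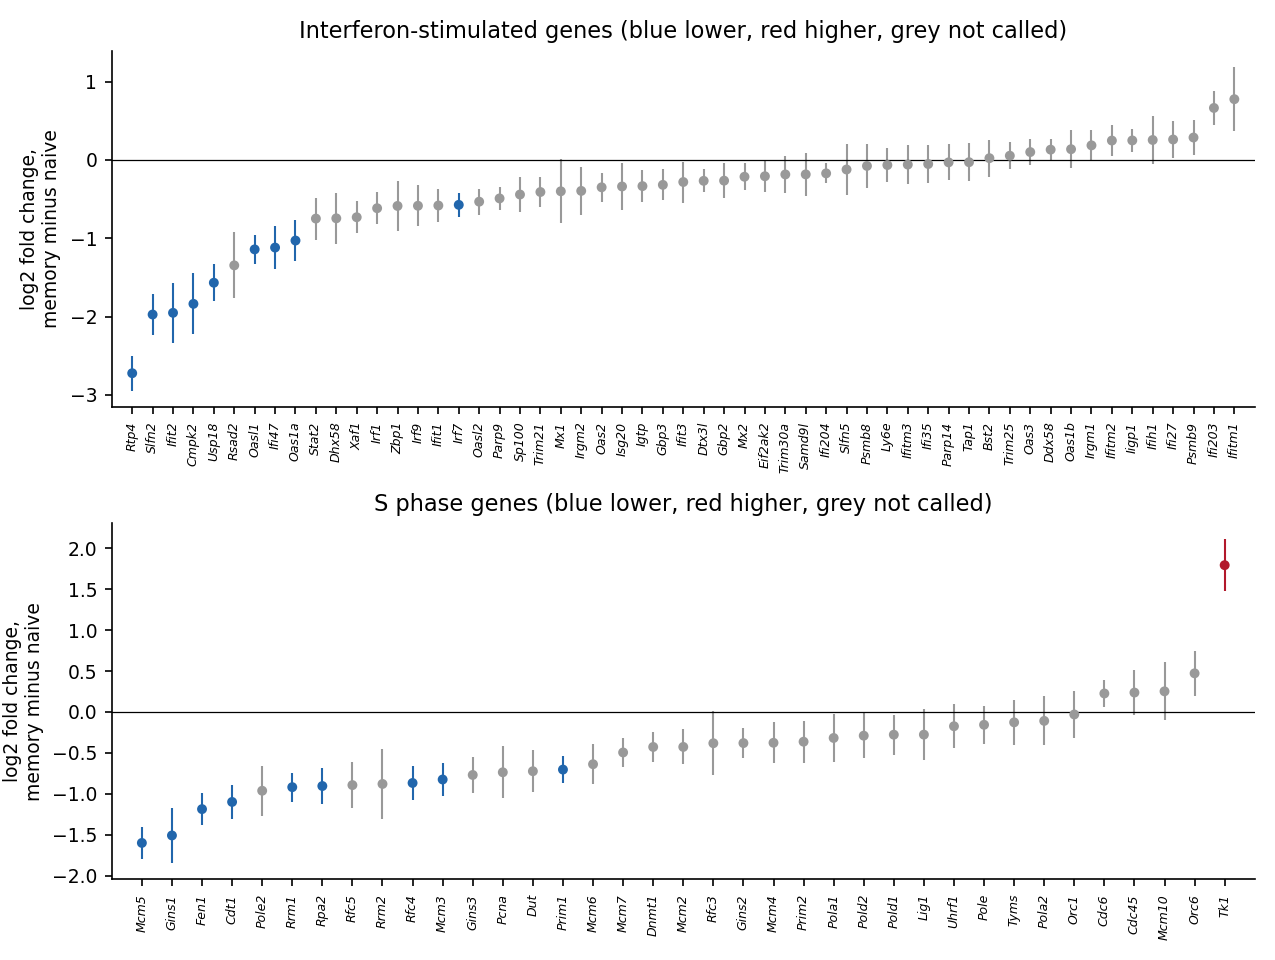
Log2 fold change (memory minus naive) with its standard error for every measured interferon-stimulated gene (upper panel) and S phase gene (lower panel), ordered by value, with called genes in blue (lower in memory) or red (higher) and uncalled genes in grey. Rtp4 is the lowest of the upper panel at -2.72, and Tk1 is the only red point at 1.79.

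The largest falls outside these groups belonged to genes of varied function. Ms4a4c, a membrane protein of the CD20 family, had 97.9, 88.6, 52.3 and 417 on the memory arrays, against 1099, 1952 and 2269.6 on the naive arrays and fell by 3.85 ± 0.51 (adjusted p = 0.000408). Its relative Ms4a6c had 15.4, 13.8, 16.5 and 19.03 on the memory arrays, against 212, 206 and 128 on the naive arrays and fell by 3.46 ± 0.28 (adjusted p = 6.16e-06, with 3 of 4 memory arrays above background). Tsc22d1, a leucine zipper protein induced by TGF-beta, had 69.5, 70.5, 102 and 385 on the memory arrays, against 1543, 1575 and 1500.3 on the naive arrays and fell by 3.71 ± 0.52 (adjusted p = 0.000707). Memory array 4 was the memory array closest to the naive arrays for all 3 genes, and Tsc22d1 fell by 4.27 ± 0.36 without it (adjusted p = 1.62e-05).

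Several further genes among the lowest encode enzymes. Gpat3, which makes lysophosphatidic acid in lipid synthesis, had 16.9, 28.2, 25.7 and 33.7 on the memory arrays, against 321, 340.4 and 270.0 on the naive arrays and fell by 3.61 ± 0.21 (adjusted p = 3.3e-07). Car2, encoding carbonic anhydrase II, had 22.2, 18.6, 22.2 and 27.5 on the memory arrays, against 251, 221 and 324 on the naive arrays and fell by 3.55 ± 0.17 (adjusted p = 3.8e-08). Ephx1, the microsomal epoxide hydrolase, had 58.4, 94.8, 92.6 and 163 on the memory arrays, against 718, 761 and 623 on the naive arrays and fell by 2.87 ± 0.26 (adjusted p = 1.27e-05). Blvrb, a reductase of biliverdin and flavins, fell by 2.84 ± 0.22 (adjusted p = 3e-06). Selenop, a secreted selenium carrier, had 117, 26.4, 90.1 and 200.6 on the memory arrays, against 999, 1199 and 877 on the naive arrays and fell by 3.55 ± 0.52 (adjusted p = 0.000919); its memory arrays differed from each other by more than 2-fold.

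Among genes bright in naive cells, Fcmr, the Fc receptor for IgM, had 1889.6, 1463, 1605 and 2066 on the memory arrays, against 5024, 5054 and 4706 on the naive arrays and fell by 1.501 ± 0.20 (adjusted p = 0.000432). Pde2a, a phosphodiesterase that hydrolyses cyclic AMP and cyclic GMP, had 559.9, 461, 1170.3 and 919 on the memory arrays, against 4125, 3565 and 3602 on the naive arrays and fell by 2.37 ± 0.31 (adjusted p = 0.00035). Pde7a, another phosphodiesterase, fell by 1.21 ± 0.15 (adjusted p = 0.000323), a call that did not hold with the most variable probe set (highest adjusted p = 0.914). Among genes bright in memory cells, Mycbp2, a very large ubiquitin ligase, had 7632, 6919.9, 5568 and 6595 on the memory arrays, against 2567, 1637 and 1786 on the naive arrays and rose by 1.76 ± 0.21 (adjusted p = 0.000235), a call that did not hold with the most variable probe set (highest adjusted p = 0.067). Kmt2c, a histone methyltransferase of enhancers, had 3052, 2599, 1891 and 1831 on the memory arrays, against 912, 364 and 362 on the naive arrays and rose by 2.21 ± 0.37 (adjusted p = 0.00245). Gpr137b, a lysosomal membrane protein, had 4082, 2229, 3283 and 2592 on the memory arrays, against 857, 452 and 279.9 on the naive arrays and rose by 2.64 ± 0.39 (adjusted p = 0.000949). St8sia6, which adds sialic acid to glycans, had 2727, 3342, 2488 and 3826 on the memory arrays, against 1016, 886 and 605 on the naive arrays and rose by 1.90 ± 0.30 (adjusted p = 0.00158).

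Some genes set memory cells apart from all 3 other subsets. How many did so was not counted, and those given were picked for the size of their smallest difference. The contrasts of memory against germinal center cells, in which 4084 genes (22.4%) were called, and against plasma cells, in which 6035 (33.2%) were called, share the memory arrays with the contrast against naive cells, so their values are given side by side. Sema4f, described above, was higher than in germinal center cells by 3.97 ± 0.26 (adjusted p = 6.23e-08), with 2 of 3 germinal center arrays above background. No plasma array was above background for it, and memory cells were at least 19.4-fold higher (adjusted p = 1.59e-09). Ffar2 differed by 3.27 ± 0.41 (adjusted p = 4.3e-05) from germinal center cells and by 5.83 ± 0.38 (adjusted p = 2.46e-08) from plasma cells. Ahnak differed by 5.17 ± 0.23 (adjusted p = 1.5e-09) from germinal center cells and by 4.38 ± 0.21 (adjusted p = 1.23e-09) from plasma cells, with 1 of 3 germinal center arrays above background. Rhbdf1, an inactive rhomboid that controls release of growth factors, had 1448, 1149, 1604 and 759 on the memory arrays, against 143, 46.4 and 148 on the naive arrays and rose by 3.58 ± 0.40 (adjusted p = 0.000107); it differed by 4.07 ± 0.40 (adjusted p = 3.57e-06) from germinal center cells and by 5.10 ± 0.37 (adjusted p = 6.66e-08) from plasma cells. Selenop was lower in memory cells than in each: its mean of 86.5 stood against 1016 in naive, 672 in germinal center and 1098 in plasma cells.

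Other risen genes were shared with another subset. S1pr3 averaged 2484 in memory cells, against 179 in naive, 1742 in germinal center and 10.4 in plasma cells. Cd86 averaged 638 in memory cells, against 99.7 in naive, 607 in germinal center and 15.02 in plasma cells. Memory and germinal center cells were not called different for S1pr3, at 0.51 ± 0.26 (adjusted p = 0.185), or Cd86, at 0.07 ± 0.19 (adjusted p = 0.833), which does not show that their levels are equal. Cd80 was not above background on any germinal center array, and was at least 4.73-fold higher in memory cells (adjusted p = 9.09e-09).

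**Figure D5:**
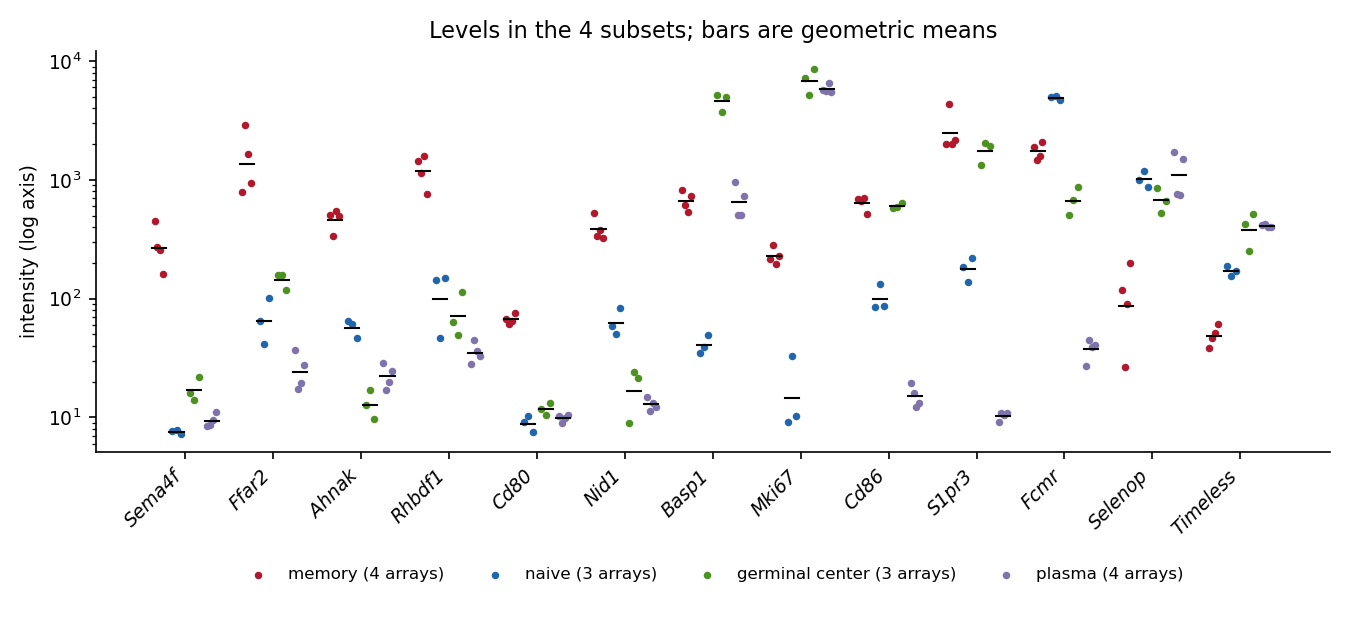
Linear intensity on a log axis for 13 genes in memory (red), naive (blue), germinal center (green) and plasma cells (purple), left to right for each gene, with a point per array and bars at the geometric mean. Memory points lie above those of the 3 other subsets for Sema4f, Ffar2, Ahnak, Rhbdf1, Cd80 and Nid1, and below them for Timeless and Selenop.

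Several further lists held no call, against 5.57% over all genes. At that share lists of this size would hold few calls, so the lack of calls is not read as a result about them. None of 18 MHC class II genes, 28 ribosomal protein genes, 29 glycolysis genes and 4 antiapoptotic BCL2 family genes was called by limma, with 4, 0, 5 and 1 of them at an unadjusted p under 0.05. With arrays centred on bright genes 1 MHC class II gene was called higher, and Bcl2 was called higher in the alternatives given above. Of 40 oxidative phosphorylation genes 2 fell and 0 rose, with a median of -0.48, and none was called without memory array 1 or naive array 2. The median of that list was -0.30 with arrays centred on bright genes, where the median of all genes was 0.15. Without that centring, the median was -0.03 over all genes and -0.20 over the bright genes. Of 38 autophagy genes 3 fell and 0 rose, the count of 3 being 1 without memory array 2, memory array 4 or naive array 2 and with arrays centred on bright genes. Bnip3, a mitophagy receptor, had 43.01, 47.8, 73.8 and 91.5 on the memory arrays, against 208, 281 and 173 on the naive arrays and fell by 1.83 ± 0.24 (adjusted p = 0.000408). Ctsl, a lysosomal protease, fell by 1.63 ± 0.22 (adjusted p = 0.000567, with 3 of 4 memory arrays above background), in a list of 30 lysosomal genes of which 3 fell and 1 rose. That balance depended on the scaling, as 4 rose and 1 fell with arrays centred on bright genes, and the count of 4 was 2 without naive array 2 or naive array 3.

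The arrays did not contribute evenly to the calls. Among the 421 risen genes memory array 4 was the memory array nearest to the naive level for 190 (45.1%), and naive array 1 was the naive array nearest to the memory level for 204 (48.5%). Among the 593 fallen genes memory array 3 was nearest to the naive level for 225 (37.9%) and memory array 4 for 204 (34.4%). Without memory array 4, 887 genes were called.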

How the data were processed

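RNA of 14 sorted B cell samples was measured on 1-colour arrays. The authors deposited linear intensities for 45101 probe sets, made with RMA per the submitters' processing notes, with no version given; RMA corrects background, normalizes between arrays and summarises probes, so it removes differences in total RNA. Here the log2 of these values was used without further scaling. The 64 control probe sets, those with no gene symbol (9160) and those with several (932) were left out, leaving 34945, named through the platform annotation, with 34741 matched to a current gene identifier and no symbol changed. Each of 18193 genes was represented by its probe set with the highest mean. limma 3.58.1 in R 4.3.3 (lmFit and eBayes, 10 residual degrees of freedom, all 14 arrays, two-sided, Benjamini-Hochberg over 18193 genes) gave the contrasts. On simulated data of the same size, 10.4% of genes changed by 0.5 on the log2 scale, 74.6% of those changed by 1 and 98.5% of those changed by 2 were recovered, and 4.65% of calls were false. The number of arrays limits the precision. No 2 of the 7 memory and naive arrays held identical values. Replicate numbers did not pair memory with naive arrays: deviations of same-numbered arrays correlated at -0.11, -0.06 and -0.03. Named genes come from a rule: the 15 highest and 15 lowest called genes without overlap and the 10 brightest of at least 2-fold in each group, immunoglobulin genes and placeholder symbols left out; up to 6 called members of each list and 3 of its minority direction; the 6 genes in each direction farthest from all 3 other subsets; and genes of the sort and of memory fate. Of those outside it, Ms4a1, Iglv1 and lineage markers check the labels, and the text marks the rest. Lists and groups of arrays compared were chosen with earlier results of these data known. Alternatives were scaling, floor, probe set choice, model options, replicate block and leaving out each array.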

Additional observations from a re-analysis of the deposited data

Results flagged for a closer look

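Among the memory arrays of the 119 genes examined, 8 had an array whose gap to the nearest other array, as a share of the range of log2 values, exceeded Dixon's critical value for 4 samples; chance gives about 1 in 20. Memory array 2 was highest for Cxcr3 (673, share 0.95), S1pr3 (4347, share 0.903) and Cd300lf (707, share 0.834), and lowest for Smad1 (65.8, share 0.872). Memory array 3 was highest for Plxnb2 (213, share 0.854). Memory array 1 was lowest for Runx3 (134, share 0.941). Memory array 4 was highest for Sdc1 (49.9, share 0.894) and Dusp1 (2897, share 0.884). The cause of these values was not tested.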

How the results depend on the processing

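Against 1014 calls, the count of genes called between memory and naive cells was 596 with a floor of 16, 442 at an adjusted p under 0.01 and 597 at 2-fold or more, and 603 to 927 when 1 array was left out. Naive array 2 (603) and naive array 3 (624) moved it most; the cause was not tested. With the replicate number as a block, 872 genes were called over 14 arrays and 628 over the 6 numbered memory and naive arrays, which drop memory array 4; the numbers did not pair the arrays. The other scalings and model options gave 929 to 1257 calls, and 1480 of 34945 probe sets. Only quantile normalization and leaving out each memory array were run for the counts against germinal center cells, 3522 to 4208, and plasma cells, 5384 to 6179. Dim genes and small folds are limited by signal over background.

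Of 101 called genes in the text, 81 kept their call and direction under each of the 21 alternatives that tested them, and 20 lost the call under at least 1, up to 12 of them in the block fit of 6 arrays and 9 without naive array 3. Directions of uncalled genes turned as follows. Ptprc was at 0.15 with arrays centred on bright genes, 1.02 with the most variable probe set and with every probe set tested, 0.023 without memory array 1 and 0.058 without naive array 3, the range being -0.11 to 0.058 when 1 array was left out. Ms4a1 was at -0.031 with the most variable probe set. Klf2 was at 0.033 with arrays centred on bright genes. Ighm was at 3.45 with the most variable probe set and 7.02 with every probe set tested.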
